A study of Mus musculus with 12 samples.

Results

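The change in gene expression between the embryonic stages E15.5 and E17.5 was compared between male gonads of M19 and 129 mouse embryos. M19 is the chromosome substitution strain 129.MOLF-Chr 19, which carries chromosome 19 of the MOLF strain on a 129 background, and 129 is 129/Sv. The groups were M19 at E15.5, M19 at E17.5, 129 at E15.5 and 129 at E17.5, each labelled as male genital ridges or testis with no treatment named, and with 2 arrays per group. These are 8 of the 12 Affymetrix mouse genome arrays, and the other arrays are M19 and 129 at E13.5. The labels state that each pair of arrays used 40 pooled pairs of testes. The arrays of a group may thus share a pool, and p-values then measure technical spread alone. For each of 45037 probe sets, all those on the array that are not controls, the late step is the mean at E17.5 minus the mean at E15.5 in log2 signal. The interaction is the M19 step minus the 129 step. A positive interaction can arise because a gene went up further in M19, because it went down further in 129, or both, and the steps are given beside it for that reason.

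In this window male germ cells put down their pluripotency genes, while Sertoli cells, which enclose them in cords, and Leydig cells, which make androgen, go on differentiating. Males of the M19 strain are known for a high rate of testicular germ cell tumours, which start from germ cells that keep features of pluripotent cells, and the series is titled after genes for the start and upkeep of such cells. In RNA of whole gonads, fewer cells of a type and less RNA per cell cannot be told apart.

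A probe set is called where limma gives an adjusted p (Benjamini-Hochberg) under 0.05. The interaction was called for 60 probe sets, which is 0.133% of those tested, 57 of them positive (0.127%) and 3 negative (0.00666%). They belong to 55 genes, and 1 has no gene. With 1 probe set per gene, the brightest, 31 of 18032 genes (0.172%) were called, 30 positive (0.166%) and 1 negative (0.00555%). All 60 kept their sign in the 16 ways to take 1 array from each group, which 16.3% of all probe sets did. A call already needs a difference that is large against the spread of these same arrays, so this agreement adds no separate support. Single arrays moved the number of calls: for M19 at E15.5 it was 34 with replicate 1 left out and 30 with replicate 2 left out, and for M19 at E17.5 it was 39 with replicate 1 left out. For 129 at E17.5 it was 34 with replicate 1 left out and 29 with replicate 2 left out, and for 129 at E13.5 it was 95 with either left out.

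The calls fell into 2 classes. In 34 probe sets of 34 genes, all positive, the mean of 129 at E15.5 lay at least 1 log2 unit above the highest of the other 5 group means, and these are called high in 129 at E15.5 alone. No call had 129 at E15.5 low alone. The other 26, of 23 genes, with 23 positive and 3 negative, are the calls with a differing course, and Fmod and Tnnt2 have probe sets in both classes. Among all probe sets, 54 (0.12%) were high in 129 at E15.5 alone, against 2 for M19 at E13.5, 3 for M19 at E15.5, 7 for M19 at E17.5, 1 for 129 at E13.5 and 0 for 129 at E17.5. Just inside the threshold of 1 were Dkk2 at 1.09 and Dsg1a at 1.04, and just outside were Krt14 at 0.96 and Tnnc2 at 0.79.

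Promoters of members of both classes are shown here. The first pair, an epidermal keratin and an embryonic myosin, are shown for the genes high in 129 at E15.5 alone, which shared 1 pattern over the arrays, and Cer1 because it is the gene with the largest interaction among the calls with a differing course. The letters are the 250 bases before the RefSeq start site on the mouse build GRCm38.p6, 5′ to 3′ on the gene's own strand. Krt10 is at chr11:99389365-99389614 (minus strand), Myh3 at chr11:67078050-67078299 (plus strand) and Cer1 at chr4:82885152-82885401 (minus strand). Capitals mark TATAAA, the core of the TATA box, or CAGACA, a form of the Smad binding motif.
Krt10 promoter: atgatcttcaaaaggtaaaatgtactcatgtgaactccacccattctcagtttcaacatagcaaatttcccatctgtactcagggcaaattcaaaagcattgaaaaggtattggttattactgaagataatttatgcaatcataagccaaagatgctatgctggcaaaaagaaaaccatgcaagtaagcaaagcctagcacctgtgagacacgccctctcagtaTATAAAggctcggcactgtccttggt
Myh3 promoter: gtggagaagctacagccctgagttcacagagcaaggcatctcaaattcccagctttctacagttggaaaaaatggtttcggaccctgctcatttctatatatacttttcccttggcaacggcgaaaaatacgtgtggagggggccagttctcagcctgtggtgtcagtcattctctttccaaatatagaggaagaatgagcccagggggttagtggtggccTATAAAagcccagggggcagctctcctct
Cer1 promoter: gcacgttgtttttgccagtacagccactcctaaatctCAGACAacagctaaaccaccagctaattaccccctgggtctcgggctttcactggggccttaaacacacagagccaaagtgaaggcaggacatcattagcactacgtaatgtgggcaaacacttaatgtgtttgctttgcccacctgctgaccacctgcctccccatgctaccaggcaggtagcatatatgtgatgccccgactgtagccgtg
The TATAAA matches start at -26 in Krt10 and -29 in Myh3 relative to the start site, and the CAGACA match at -213 in Cer1. Windows of 300 bases, 250 before and 50 after the start, were searched on both strands for both motifs, which cannot overlap each other. TATAAA was found in 8 of the 22 genes high in 129 at E15.5 alone that have an entry (36.4%), in 4 of the 21 genes with a differing course that have one (19.0%), and in 13.6% of all 32851 windows. CAGACA was found in 3 of 22 (13.6%), 4 of 21 (19.0%) and 21.0%. A gene counts if any of its windows has a match, while the share of all windows counts each window by itself. The gene shares and the window shares are thus unlike measures, and a match is a description of the letters only.

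**Figure D1:**
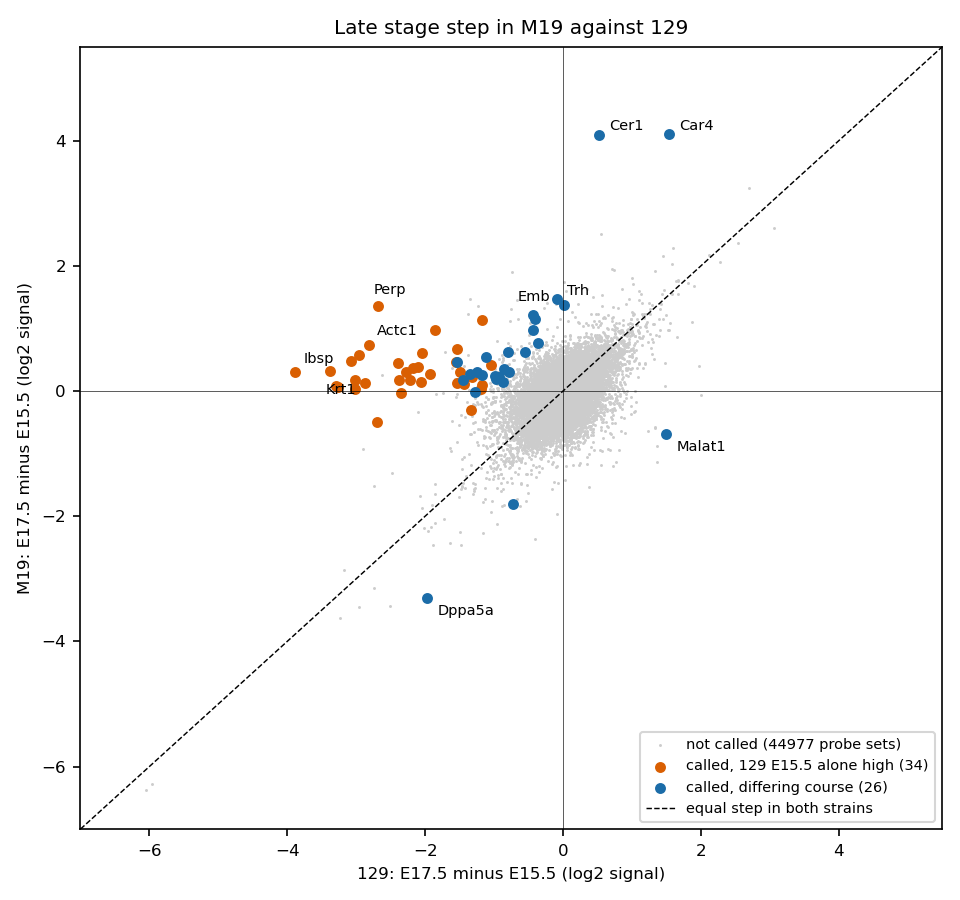
Late step (E17.5 minus E15.5, log2 signal) in M19 on the vertical axis against 129 on the horizontal axis, 1 point per probe set. The 34 probe sets high in 129 at E15.5 alone lie left of 0 and near 0 vertically, with 129 steps of -3.89 to -1.04 and M19 steps of -0.5 to 1.36, while Cer1 and Car4 lie high above the line of equal steps and Dppa5a and Malat1 below it.

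Genes of epidermis led the class high in 129 at E15.5 alone. Krt1, a keratin of differentiating epidermis, had 7.64 and 7.74 in M19 at E15.5 and 8.04 and 7.98 in M19 at E17.5, against 11.3 and 11.39 in 129 at E15.5 and 7.96 and 7.98 in 129 at E17.5. Both 129 E15.5 arrays stood more than 3 log2 units above every other array, and the other groups lay close together. The step was 0.32 ± 0.13 (SE) in M19 and -3.38 ± 0.13 in 129, an interaction of 3.70 ± 0.18 (limma adjusted p = 1.8e-05), or 12.96-fold. Perp, a membrane protein of desmosomes, had 6.06 and 5.88 in M19 at E15.5 and 7.07 and 7.59 in M19 at E17.5, against 9.87 and 10.18 in 129 at E15.5 and 7.37 and 7.32 in 129 at E17.5. Its interaction was 4.04 ± 0.32 (limma adjusted p = 0.0004), and it differed from Krt1 in that it also rose in M19, by 1.36, so that the strains met at E17.5. The basal keratins Krt5 and Krt15 had interactions of 3.00 and 3.19, Krt10, the partner of Krt1, 2.31, and Krtdap, of differentiating keratinocytes, 3.38. Dmkn, a secreted protein of upper epidermis, had 7.13 and 7.01 in M19 at E15.5 and 8.16 and 8.24 in M19 at E17.5, against 9.27 and 9.63 in 129 at E15.5 and 8.2 and 8.36 in 129 at E17.5. Dmkn rose by 1.13 in M19 and fell by 1.17 in 129, and the strains overlapped at E17.5.

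Of 24 measured genes of an epidermis list, 9 were called by their brightest probe sets, all positive (0.166% of all genes were), and the median interaction was 0.53, against 0.01 over all genes. The mean of 129 at E15.5 was the highest of the 6 in 18 of the 24, which held for 11.4% of all genes. The gene lists, here and below, were chosen with earlier results of these data known. Their shares beside those of all genes are thus a description and no separate support. Lor, Ivl and Flg, of the outermost layers, had interactions of 0.43, 0.40 and 0.30 and were not called. Desmosomal cadherins were called through single probe sets, with interactions of 2.66 for Dsg1b, 2.55 for Dsc3, 2.50 for Dsc1 and 1.47 for Dsg1a. The brighter probe sets gave 0.09 for Dsc3 and 0.13 for Dsc1, and the call of Dsc3 was lost in 9 of the 12 fits with 1 array left out. Krt14, partner of Krt5, had an interaction of 1.65 ± 0.26 (limma adjusted p = 0.043), and its call was lost in 10 of these 12 fits, with adjusted p up to 0.27. The summed signal of the 24 genes was 9959 and 9412 in M19 at E15.5 and 10850 and 10490 in M19 at E17.5, against 23970 and 25570 in 129 at E15.5 and 11670 and 10140 in 129 at E17.5. No member stood at 0 on any array, and the part of epidermal tissue in these results was not tested.

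Some skeletal muscle genes were also high in 129 at E15.5 alone. Actc1, the actin of heart and embryonic muscle, had 7.28 and 7.21 in M19 at E15.5 and 7.94 and 8.0 in M19 at E17.5, against 10.63 and 10.8 in 129 at E15.5 and 7.94 and 7.86 in 129 at E17.5. The M19 arrays were lowest at E15.5, where the 129 arrays were highest, and the strains met at E17.5. Its interaction was 3.54 ± 0.18 (limma adjusted p = 1.8e-05), from steps of 0.73 in M19 and -2.82 in 129, both called. Myh3, the embryonic myosin heavy chain, had called steps of 0.98 in M19 and -1.85 in 129. The myosin light chains Myl1 and Mylpf had interactions of 2.21 and 2.01.

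Myh8 and Tnnc2 of the muscle list were among the calls with a differing course. Myh8, the perinatal myosin heavy chain, had 6.13 and 5.92 in M19 at E15.5 and 7.26 and 7.11 in M19 at E17.5, against 7.59 and 7.55 in 129 at E15.5 and 7.05 and 7.26 in 129 at E17.5. It rose by 1.16 in M19, while the 129 step of -0.41 was not called, and its interaction of 1.57 was lost without replicate 2 of M19 at E15.5 or replicate 1 of 129 at E17.5 (limma adjusted p = 0.058 each). Tnnc2, troponin C of fast muscle, rose by 0.62 in M19 and fell by 0.80 in 129 (interaction 1.42 ± 0.16, limma adjusted p = 0.0037). In all, 6 of 27 muscle genes were called by their brightest probe sets, all positive (0.166% of all genes were), with a median interaction of 0.49 against 0.01 over all genes. The mean of 129 at E15.5 was highest in 16, against 11.4% of all genes. Myod1, Myf5 and Myf6, which set muscle fate, had 0.37, 0.54 and -0.06, not called. The summed signal was 8237 and 7983 in M19 at E15.5 and 10360 and 9703 in M19 at E17.5, against 13950 and 13860 in 129 at E15.5 and 10250 and 10410 in 129 at E17.5, with no member at 0, and its part in the result was not tested.

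Genes of cartilage and tendon made up the rest of the tissue lists. Col2a1, the main collagen of cartilage, had 7.84 and 7.73 in M19 at E15.5 and 8.22 and 8.25 in M19 at E17.5, against 10.42 and 10.42 in 129 at E15.5 and 8.03 and 8.04 in 129 at E17.5. Its interaction was 2.84 ± 0.19 (limma adjusted p = 0.0001). It was the 1 gene of 18 in the cartilage list called by its brightest probe set (0.166% of all genes were called positive). Matn4 (1.22), Acan (0.98) and Col11a1 (0.87), also of cartilage matrix, were not called. Kera, a small leucine-rich proteoglycan, had 6.71 and 6.63 in M19 at E15.5 and 6.68 and 6.78 in M19 at E17.5, against 9.92 and 9.87 in 129 at E15.5 and 6.58 and 6.67 in 129 at E17.5. Only 129 at E15.5 stood apart for Kera, with an interaction of 3.33 ± 0.19 (limma adjusted p = 4.7e-05). Tnmd, a marker of tendon cells, had 2.59. The tendon and connective tissue list had 3 of 18 called by their brightest probe sets, all positive (0.166% of all genes were). All 18 members had a positive interaction, against 9248 of all 18032 genes, with a median of 0.66 against 0.01 over all genes.

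The summed signal of the tendon and connective tissue list did not set 129 at E15.5 apart, while many single members did. The sum was 46510 and 46550 in M19 at E15.5 and 61160 and 64340 in M19 at E17.5. In 129 it was 64100 and 67710 at E15.5 and 61370 and 63160 at E17.5, near the same level at both stages. Of these arrays those of M19 at E15.5 were low, but M19 at E13.5 was as low, at 47390 and 45990. The sum in 129 at E13.5 was 52170 and 51110. Gene by gene, 129 at E15.5 had the highest group mean in 10 of the 18, which held for 11.4% of all genes. At E15.5, 8 of the 18 were called lower in M19 (0.538% of all genes were), and 10 were not called. Ogn, Dpt, Thbs4 and Col1a1, matrix genes of the list, rose in M19 by 1.32, 1.04, 1.09 and 0.76, with interactions of 0.52, 0.74, 0.75 and 0.85 that were not called. For cartilage the sums were 7535 and 7651 in M19 at E15.5 and 7045 and 7163 in M19 at E17.5, against 10100 and 10840 in 129 at E15.5 and 6995 and 7095 in 129 at E17.5. No member of either list stood at 0, and the part of these tissues was not tested.

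Genes outside these lists were in the same class. Hoxd13, a homeobox gene of the posterior body, had 6.65 and 6.76 in M19 at E15.5 and 6.85 and 6.91 in M19 at E17.5, against 8.91 and 9.25 in 129 at E15.5 and 6.89 and 6.82 in 129 at E17.5. Both 129 E15.5 arrays lay about 2 log2 units above all others, with an interaction of 2.40 ± 0.18 (limma adjusted p = 0.00026). Dimmer probe sets with means under 8.17, the median of all probe sets, gave large interactions for Ibsp, a bone sialoprotein (4.20 ± 0.38), Tbx18, a T-box factor of mesenchyme (3.56), the chemokine Cxcl14 (3.54) and the secreted protein Angptl1 (3.05). The brightest probe sets of these genes, none called, gave 0.41 for Ibsp, 0.58 for Tbx18, 1.41 for Cxcl14 and -0.15 for Angptl1. Dkk2, an inhibitor of Wnt signalling, had a step of -0.5 in M19, not called, and -2.7 in 129.

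The remaining genes of this class are given here. Trp63, the p63 factor that sets up stratified epithelium, had 6.6 and 6.6 in M19 at E15.5 and 6.59 and 6.86 in M19 at E17.5, against 8.11 and 8.45 in 129 at E15.5 and 6.78 and 6.73 in 129 at E17.5. This probe set is not the brightest of Trp63, which gave an interaction of 0.23, against 1.66 here. The keratin Krt6a had 1.81, S100a14, a calcium-binding protein of epithelia, 1.54, the epidermal protein Sbsn 1.04 and the lipase Lipm, encoded on chromosome 19, 2.22. The brightest probe sets of Krt6a, Sbsn and Lipm were not called and gave 0.27, 1.08 and 0.04. Tnnt2, troponin T of heart and embryonic muscle, had 2.55 in 1 probe set of this class and 1.42 in another with a differing course, while its brightest gave 0.17. The matrix proteins Ccn3 and Fmod had 2.21 and 1.27, the membrane lectin Chodl 1.55 and the transcription factor Tfap2b 1.22. For Fmod and Tfap2b the brightest probe sets were not called and gave 0.57 and 0.84.

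Over the 34 probe sets of this class the interaction ran from 1.04 to 4.2, with a median of 2.52. The 129 step was -3.89 to -1.04 with a median of -2.2, and the M19 step was -0.5 to 1.36 with a median of 0.29. The M19 step was called in 5, Perp, Actc1, Myh3, Dmkn and Ccn3, each upward. The difference between M19 and 129 was -0.54 to 0.2 at E13.5 and -0.46 to 0.35 at E17.5, and none of the 34 was called at either stage, where 0.0511% and 0.0977% of all probe sets were. At E15.5 it was -4.05 to -1.06, which follows from how the class was chosen. Without these 34 probe sets the adjustment left 13 calls, and without the genes of the epidermis, muscle, cartilage and tendon lists it left 17, both settings chosen after seeing the data.

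**Figure D2:**
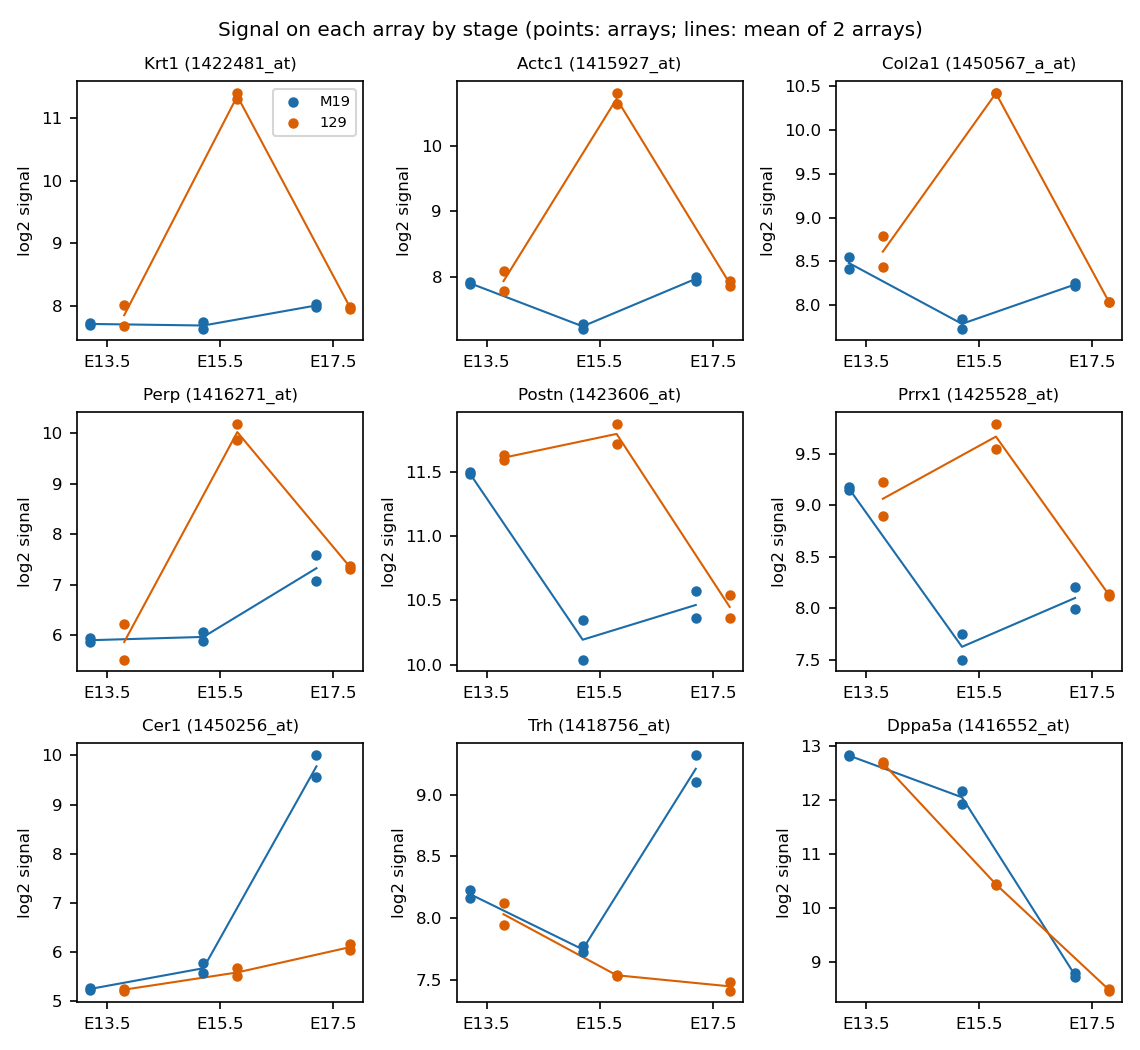
Log2 signal on each array at E13.5, E15.5 and E17.5 for 9 called genes, M19 in blue and 129 in orange, with points for arrays and lines through the means of 2. Krt1, Actc1, Col2a1 and Perp peak in 129 at E15.5, Postn and Prrx1 stay high in 129 until E15.5 and are low in M19 from E15.5, Cer1 and Trh are high in M19 at E17.5, and Dppa5a is lower in 129 than in M19 at E15.5.

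Among the 26 calls with a differing course, 129 at E15.5 still had the highest mean in 17, by under 1 log2 unit. It was highest in 51 of all 60 calls, against 11.6% of all probe sets. The means of 129 at E15.5 and M19 at E17.5 enter the interaction with a plus sign. A high place of either in positive calls thus follows in part from how the calls were chosen. The 129 step alone was called in 14 of the 26, the M19 step alone in 8, both in opposite directions in 1 (Tnnc2) and both in the same direction in 3 (Car4, Dppa5a and Gm9112). With an array left out, this count of 26 was 15 (replicate 1) or 14 (replicate 2) for M19 at E13.5, 8 (either) for M19 at E15.5 and 13 (replicate 1) for M19 at E17.5. It was 54 (replicate 1) or 56 (replicate 2) for 129 at E13.5, 14 (replicate 2) for 129 at E15.5 and 9 (replicate 1) or 7 (replicate 2) for 129 at E17.5. The count of 34 was 22 with replicate 2 of M19 at E15.5 or of 129 at E17.5 left out. Krt14, Dsc3 and Crabp1 also missed the threshold under quantile normalization (limma adjusted p = 0.054, 0.062 and 0.069), and Car4 in a fit on the 8 arrays of E15.5 and E17.5 (0.085). Calls kept in all 12 fits with 1 array left out were 4 of the 26, namely Cer1, Prrx1, Trh and Tnnc2, and 22 of the 34 high in 129 at E15.5 alone.

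Several matrix and mesenchyme genes were lower in M19 than in 129 at E15.5 and close to it at E13.5 and E17.5. Postn, or periostin, a matrix protein of mesenchyme, had 11.5 and 11.48 in M19 at E13.5, 10.35 and 10.04 at E15.5 and 10.36 and 10.57 at E17.5. In 129 it had 11.63 and 11.59 at E13.5, 11.72 and 11.87 at E15.5 and 10.54 and 10.36 at E17.5. The strains overlapped in level at E17.5 and lay close at E13.5, and M19 was lower at E15.5 alone. Its interaction was 1.61 ± 0.19 (limma adjusted p = 0.0073), and the call was lost without replicate 2 of M19 at E15.5 (adjusted p = 0.051) or replicate 2 of 129 at E17.5 (0.066). Prrx1, a homeobox factor of limb mesenchyme, had 9.15 and 9.18 in M19 at E13.5, 7.75 and 7.5 at E15.5 and 7.99 and 8.21 at E17.5. In 129 it had 8.9 and 9.23 at E13.5, 9.55 and 9.79 at E15.5 and 8.12 and 8.14 at E17.5, an interaction of 2.01 ± 0.21 (limma adjusted p = 0.0029). Its brightest probe set gave 0.24 and was not called.

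Further genes of this shape were named by single probe sets. Col9a1, a cartilage collagen, had an interaction of 1.63 and a brighter probe set at 0.59, and Crabp1, which binds retinoic acid, had 1.55, lost in 9 of 12 fits with 1 array left out. Cpm, a carboxypeptidase of the cell membrane, had 8.27 and 8.29 in M19 at E13.5, 6.58 and 6.61 at E15.5 and 6.53 and 6.63 at E17.5. In 129 Cpm had 7.97 and 8.33 at E13.5, 7.88 and 7.87 at E15.5 and 6.64 and 6.56 at E17.5, so it was at its low level in M19 by E15.5 and in 129 by E17.5. Its interaction was 1.26 ± 0.18 (limma adjusted p = 0.024), with 0.37 in the brighter probe set. The proteoglycan Fmod had 3 more called probe sets in this class, with 1.14 to 1.23. The keratin Krt4 (1.16), the giant muscle protein Ttn (1.08) and the collagen Col8a1 (1.02) were also highest in 129 at E15.5. The brightest probe sets of Krt4, Ttn and Col8a1 were not called and gave 1.0, 0.34 and 0.63. Bpifc, a lipid-binding family member, rose by 1.21 in M19, with a 129 step of -0.44 that was not called (interaction 1.65), and the probe set with no gene had an interaction of 1.13.

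Calls led by M19 at E17.5 were few. M19 at E17.5 had the highest mean in 5 of the 60 calls, against 21.7% of all probe sets, and stood at least 1 log2 unit above the other groups in 3, Cer1, Car4 and Trh. Cer1, a secreted inhibitor of Nodal and BMP signals that marks anterior endoderm in the early embryo, had 5.57 and 5.78 in M19 at E15.5 and 9.55 and 10.0 in M19 at E17.5, against 5.51 and 5.67 in 129 at E15.5 and 6.16 and 6.05 in 129 at E17.5. Only the M19 arrays at E17.5 were high. The step was 4.10 in M19 and 0.52 in 129, not called, with an interaction of 3.58 ± 0.21 (limma adjusted p = 5e-05), or 11.97-fold. A second, brighter probe set of Cer1 had 8.02 and 8.15 in M19 at E15.5 and 8.6 and 8.6 in M19 at E17.5, against 8.24 and 8.17 in 129 at E15.5 and 8.3 and 8.47 in 129 at E17.5. It was highest in the same arrays, but its interaction was 0.34 ± 0.23 and not called.

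Trh, thyrotropin-releasing hormone, had 7.77 and 7.72 in M19 at E15.5 and 9.32 and 9.1 in M19 at E17.5, against 7.54 and 7.53 in 129 at E15.5 and 7.48 and 7.41 in 129 at E17.5. Its interaction was 1.56 ± 0.17 (limma adjusted p = 0.0032), from a called M19 step of 1.47 and a 129 step of -0.09 that was not called. Car4, a carbonic anhydrase of the cell surface, rose in both strains. It had 4.72 and 4.43 in M19 at E15.5 and 8.58 and 8.78 in M19 at E17.5, against 4.3 and 5.27 in 129 at E15.5 and 6.09 and 6.55 in 129 at E17.5. The interaction of 2.57 ± 0.38 (limma adjusted p = 0.028) was lost in 8 of 12 fits with 1 array left out, and the brighter probe set gave 0.60. Emb, or embigin, a membrane glycoprotein, rose by 1.37 in M19, with a 129 step of 0.01 that was not called (interaction 1.36 ± 0.19, limma adjusted p = 0.019), with 0.44 and -0.24 in its other probe sets. Apela, a peptide ligand of the apelin receptor known in early embryos and pluripotent cells, had 6.27 and 6.41 in M19 at E15.5 and 6.96 and 6.99 in M19 at E17.5, against 6.77 and 6.98 in 129 at E15.5 and 6.38 and 6.28 in 129 at E17.5. Its strains crossed, with an interaction of 1.18 ± 0.18 (limma adjusted p = 0.031). Col17a1, a collagen of hemidesmosomes encoded on chromosome 19, rose by 0.97 in M19, with a 129 step of -0.43 that was not called. Unlike the genes before it, Col17a1 was highest in 129 at E15.5, with a mean of 7.98. Its other means were 6.39 in M19 at E15.5, 7.37 in M19 at E17.5 and 7.55 in 129 at E17.5. Its interaction of 1.40 was lost in 6 of 12 fits with 1 array left out.

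The list of anterior endoderm and organizer genes, to which Cer1 belongs, gave no calls by brightest probe set. Of 20 measured genes, 18 had a positive interaction, against 9248 of all 18032 genes, and the median was 0.21. The M19 step was called upward in 4 (1.45% of all genes) and the 129 step in 1 (1.18% of all genes). The largest interaction by brightest probe set was that of Dkk1, at 1.45 ± 0.26, not called (limma adjusted p = 0.09). Its steps of 0.66 in M19 and -0.79 in 129 were not called either. Dkk1 was not highest in M19 at E17.5, with a mean of 7.67 there against 8.33 in 129 at E13.5. Foxa2, a forkhead factor of endoderm, had 7.2 and 7.32 in M19 at E15.5 and 8.51 and 8.55 in M19 at E17.5, against 7.38 and 7.21 in 129 at E15.5 and 7.42 and 7.43 in 129 at E17.5. Cyp26a1, which degrades retinoic acid, had 7.43 and 7.66 in M19 at E15.5 and 8.61 and 8.7 in M19 at E17.5, against 7.67 and 7.63 in 129 at E15.5 and 7.75 and 7.71 in 129 at E17.5. Both were high in the M19 E17.5 arrays alone, with called M19 steps of 1.27 and 1.11. Their interactions of 1.14 ± 0.21 and 1.03 ± 0.17 missed the threshold (limma adjusted p = 0.11 and 0.064). Each also missed it in 10 of 12 fits with 1 array left out, all but those without an array of 129 at E13.5. In these 12 fits the interaction ran from 1.06 to 1.22 for Foxa2 and from 0.92 to 1.15 for Cyp26a1. Of 8 other settings, Foxa2 missed it in 6 and Cyp26a1 in 3, and both passed under quantile normalization (limma adjusted p = 0.046 and 0.025). Otx2, a head homeobox gene, had an interaction of 0.01. The Nodal co-receptor Tdgf1 had 6.01 and 5.89 in M19 at E15.5 and 7.66 and 8.1 in M19 at E17.5, against 3.75 and 4.65 in 129 at E15.5 and 5.17 and 4.72 in 129 at E17.5. M19 was higher at both stages, and the interaction of 1.19 ± 0.46 was not called (limma adjusted p = 0.99). None of 15 Nodal pathway genes was called by its brightest probe set, and Cer1 was the 1 called by another. The ligand Nodal had an interaction of 0.28.

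Of the pluripotency list, 1 gene had a called interaction. Dppa5a, an RNA-binding protein of pluripotent and germ cells, had 12.17 and 11.93 in M19 at E15.5 and 8.78 and 8.71 in M19 at E17.5, against 10.43 and 10.44 in 129 at E15.5 and 8.46 and 8.49 in 129 at E17.5. M19 was higher at E15.5 and the strains were within 0.4 log2 units at E17.5. The step of Dppa5a was -3.31 in M19 and -1.97 in 129, both called, an interaction of -1.34 ± 0.16 (limma adjusted p = 0.0067), which was lost without replicate 2 of 129 at E17.5 (0.056). At E13.5 the strains lay close, at 12.82 and 12.83 in M19 and 12.67 and 12.7 in 129. Of 23 measured genes of the list, 9 fell in M19 (1.8% of all genes did) and 9 in 129 (1.25% of all genes), while 13 in M19 and 14 in 129 were not called and Tdgf1 rose in M19, by 1.93. Among those that fell were Sox2, with steps of -3.45 in M19 and -2.96 in 129, Dppa3, with -3.43 in M19 and -2.51 in 129, and Pou5f1, with -1.69 in M19 and -1.51 in 129. Their interactions of -0.49, -0.91 and -0.18 were not called, and the median of the list was -0.11. At E15.5, 7 of the 23 were called higher in M19 (0.15% of all genes were), none lower, and 16 were not called. Besides Dppa5a these were Tdgf1 (1.74), Sox2 (1.65), Nanog (1.39), Dnmt3b (1.04), L1td1 (0.98) and Dppa3 (0.82). No germ cell identity gene of 19 and no gene of 19 of the piRNA pathway, which silences transposons, was called.

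The other negative calls were Malat1 and Gm9112. Malat1, a nuclear long noncoding RNA on chromosome 19, had 10.01 and 9.52 in M19 at E15.5 and 8.93 and 9.22 in M19 at E17.5, against 8.71 and 8.97 in 129 at E15.5 and 10.24 and 10.43 in 129 at E17.5. The strains crossed, with an interaction of -2.19 ± 0.27 (limma adjusted p = 0.0077). Its 6 other probe sets, none called, ran from -1.11 to 0.0. Gm9112, a predicted gene on chromosome X, was high in M19 at E15.5 alone, at 7.79 and 7.68, with 5.97 and 5.88 in M19 at E17.5, against 6.75 and 6.51 in 129 at E15.5 and 5.91 and 5.9 in 129 at E17.5. Both steps were called downward, and the interaction was -1.08 ± 0.16 (limma adjusted p = 0.033). Its other probe sets, both brighter, gave 0.13 and 0.03 and were not called. Chromosome 19, which differs by origin between the strains, held 3 of the 60 called probe sets, Malat1, Lipm and Col17a1, and 1 of the 31 genes called by their brightest probe set (3.23%, against 3.38% of genes tested).

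**Figure D3:**
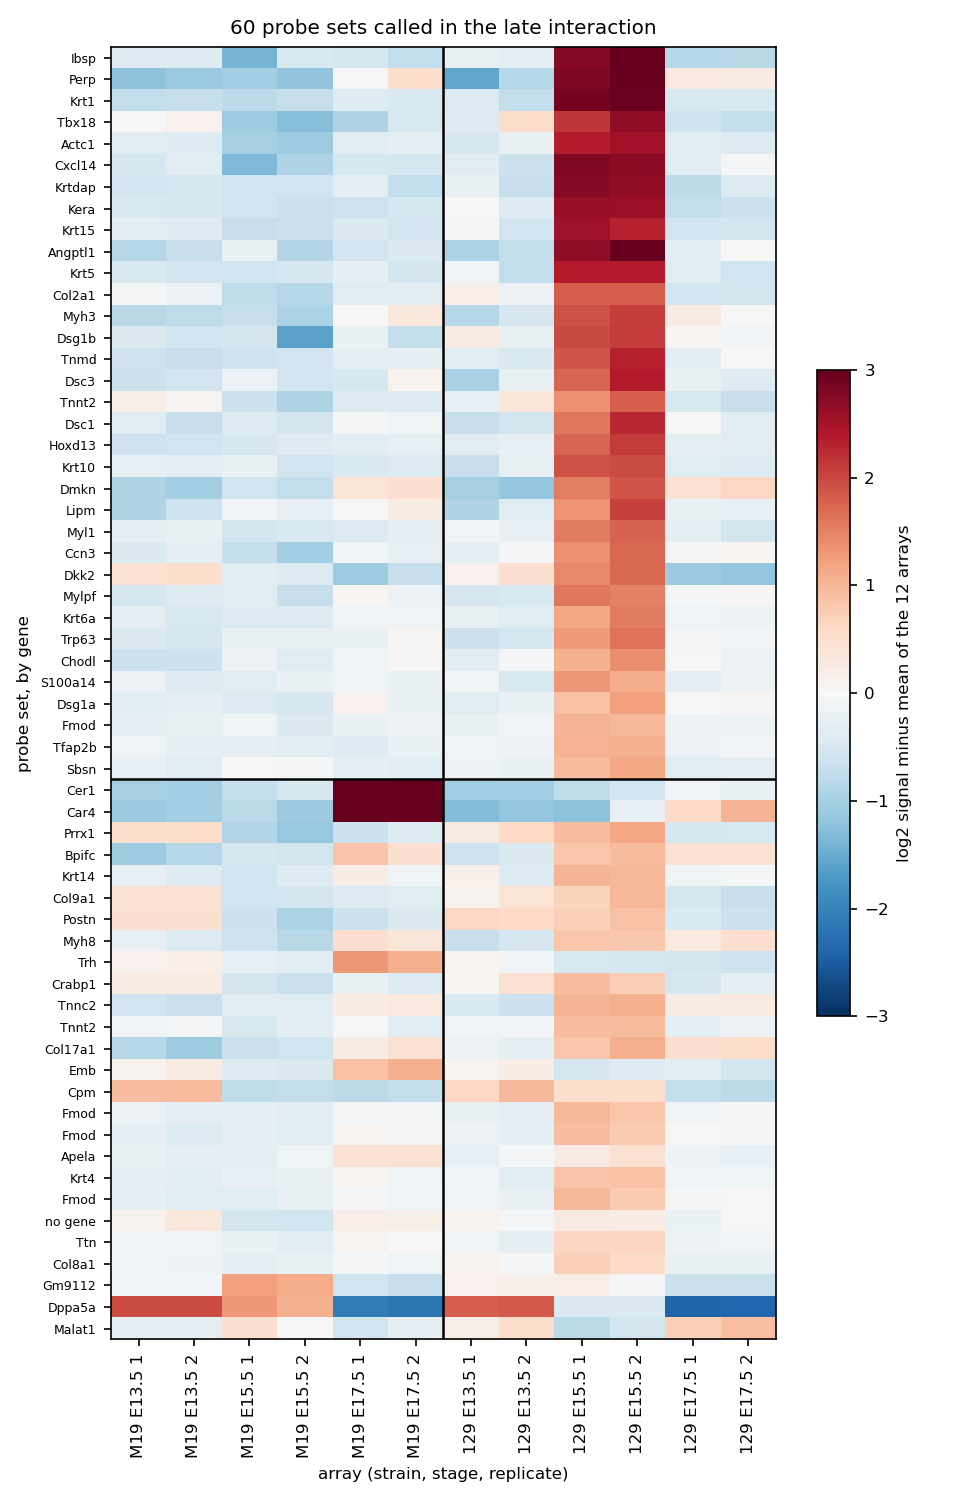
The 60 called probe sets (rows, named by gene) on the 12 arrays (columns), as log2 signal minus the probe set's mean over the 12 arrays, with colours ending at 3 and -3. The horizontal line separates the 34 high in 129 at E15.5 alone, red in the columns of 129 at E15.5, from the 26 with a differing course.

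Somatic lists of the testis gave no calls. The median interaction was -0.10 over 18 Sertoli genes, 0.08 over 12 fetal Leydig genes, -0.03 over 10 peritubular and smooth muscle genes, -0.11 over 9 interstitial mesenchyme genes and -0.06 over 12 endothelial genes. The defining markers of the testis were present in every group: the summed signal of the Sertoli list was 58490 and 56870 in M19 at E15.5 and 66100 and 64100 in M19 at E17.5, against 52240 and 56130 in 129 at E15.5 and 64340 and 66460 in 129 at E17.5. The lists of neurons and glia (median 0.09), mesonephros and ducts (0.30), coelomic surface (-0.01), red blood cells (-0.06), macrophages (0.14) and proliferation (0.0) also held no call. Of the genes that the study names as lower in M19, Sf1 (formerly Zfp162), Pum3 (formerly D19Bwg1357e) and Cox15, none had a called interaction, with -0.09, -0.23 and -0.29.

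**Figure D4:**
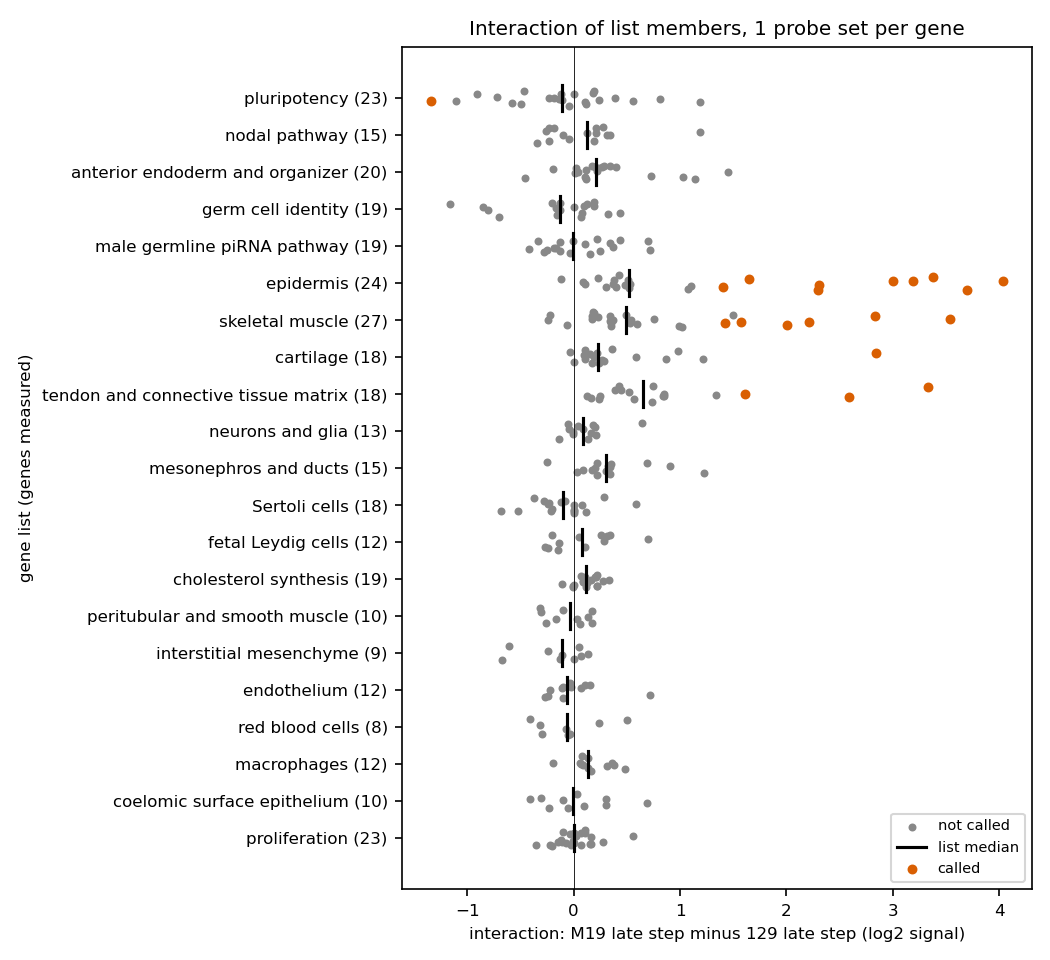
Interaction (M19 step minus 129 step, log2 signal) of the measured members of 21 gene lists, 1 point per gene by its brightest probe set, with called genes in orange and a black bar at each list's median. The called genes lie in the epidermis, skeletal muscle, cartilage, tendon and pluripotency lists, and the medians run from -0.13 for germ cell identity to 0.66 for tendon and connective tissue matrix.

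Late steps that were called in both strains were mostly shared in direction. The step was called in M19 for 1052 probe sets (2.34%), 445 up (0.988%) and 607 down (1.35%), and in 129 for 777 (1.73%), 375 up (0.833%) and 402 down (0.893%). Both were called in 393, or 37.4% of the M19 calls and 50.6% of the 129 calls, and 387 of them had the same direction, 206 higher and 181 lower at E17.5. The 6 with opposite directions were all called in the interaction. Of 659 called in M19 alone 8 had a called interaction, and of 384 called in 129 alone 43 had. Across probe sets, which are not independent, the M19 step correlated with the 129 step at a Pearson r of 0.51. Single arrays moved these counts: with 1 array left out, the M19 step gave 551 calls for either M19 array at E13.5, 173 (replicate 1) or 288 (replicate 2) for M19 at E15.5, 269 (replicate 1) or 356 (replicate 2) for M19 at E17.5, and 1896 for either 129 array at E13.5. The 129 step gave 469 calls for either M19 array at E13.5, 1277 for either 129 array at E13.5, 411 (replicate 1) or 376 (replicate 2) for 129 at E15.5, and 298 (replicate 1) or 218 (replicate 2) for 129 at E17.5.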

How the data were processed

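The deposited table holds 1 value per probe set and array for 12 arrays. The values are taken as log2 signal as deposited, since they reach 15.03 and array medians lie between 8.1 and 8.27; summary method, background correction, normalization and log base are not given in the sources used here. The 64 control probe sets were left out. The platform annotation pairs 34945 of 45037 probe sets with 1 gene, 932 with several and 9160 with none, and 34741 matched RefSeq GRCm38.p6. A gene stands for its brightest probe set over the 12 arrays unless another is named.

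In limma 3.58.1 (R 4.3.3), 6 group means were fitted to the 12 arrays with no replicate block, with eBayes (6 residual and 4.82 prior degrees of freedom) and Benjamini-Hochberg adjustment over all probe sets. All tests are two-sided. The number of arrays limits precision: replicates differed by an SD of 0.161 to 0.38. On simulated data with 200 of 45037 probe sets changed, the interaction test made 178 calls, 5 of them false, and recovered 50% of changes of 1 log2 unit and 96% of changes of 2. The simulated noise was independent between arrays, with 1 spread per probe set for all groups. In the data the spread differed between groups, so these rates may not hold for them. Summed list signal adds 2 to the power of each value. Annotation and plots used Python 3.11.15 with pandas 2.3.3 and matplotlib 3.10.9.

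Named genes are called ones with the same sign in all 16 array combinations and a highest mean above 8.17 (up to 12 per class and direction), up to 8 called by dimmer probe sets, called list members, and up to 3 of each list with no call. Other named members were chosen after their values were seen. The members and lists were chosen with earlier results of these data known. Alternatives were other normalizations, filters, gene summaries, variance models, class thresholds, a replicate block and leaving out each array. Replicate numbers were not taken to pair the samples, since the sample titles name no pairing. The difference between replicates correlated over 0.1 in 6 of 15 pairs of groups (-0.37 to 0.54), and what some groups share by replicate number was not tested.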

Additional observations from a re-analysis of the deposited data

Results flagged for a closer look

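The interaction is a test of the difference between the strains in 1 contrast, E17.5 against E15.5, so the called genes taken by the naming rule are given here, beside the count of 60 called probe sets. The values are M19 step minus 129 step in log2 signal, from limma with Benjamini-Hochberg adjusted p under 0.05.

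Epidermal genes high in 129 at E15.5 alone had Perp 4.04, Krt1 3.70, Krtdap 3.38, Krt15 3.19, Krt5 3.00, Dsc3 2.55, Krt10 2.31 and Dmkn 2.30. Muscle genes of that class had Actc1 3.54, Myh3 2.83, Tnnt2 2.55, Myl1 2.21 and Mylpf 2.01. Cartilage, bone, tendon and mesenchyme genes of that class had Ibsp 4.20, Tbx18 3.56, Kera 3.33, Col2a1 2.84, Tnmd 2.59 and Hoxd13 2.40, and the secreted proteins Cxcl14 and Angptl1 had 3.54 and 3.05.

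Calls with a differing course were Cer1 at 3.58, Car4 at 2.57, Krt14 at 1.65, Postn at 1.61, Myh8 at 1.57, Trh at 1.56, Crabp1 at 1.55, Tnnc2 at 1.42, Col17a1 at 1.40 and Dppa5a at -1.34. Cer1, Trh, Car4 and Dppa5a have in common that their difference does not come from a peak in 129 at E15.5. Cer1, Tbx18, Cxcl14, Ibsp, Angptl1, Car4, Dsc3 and Tnnt2 were called by probe sets that are not the brightest of their gene. Of 55 genes with a called probe set, 28 have others, and 44 of these 51 uncalled probe sets have the same sign, with a median of 0.37 for genes called positive. The Tnnt2 call was lost without replicate 2 of M19 at E15.5 or replicate 2 of 129 at E17.5.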

How the results depend on the processing

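The count of 60 interaction calls stayed within 1.5 times under quantile normalization (66, sharing 54), median centring (65), a filter on dim probe sets (53), eBayes with a trend (82) or robust (60), the 8 arrays of E15.5 and E17.5 alone (59) and the replicate block (65, sharing 58), which changed no named call except Dkk1 (adjusted p = 0.031). Leaving out 1 array gave 29 to 95 interaction calls, 22 to 41 high in 129 at E15.5 alone, 7 to 56 with a differing course, 20 to 48 genes by brightest probe set, 173 to 1896 M19 step calls and 218 to 1277 129 step calls. Averaging each gene's probe sets gave 66 genes in place of 31, and eBayes with a trend gave 46 calls with a differing course. A class threshold of 0.5 gave 16 with a differing course, and a threshold of 2 gave 17 high alone and 43 with a differing course. A minimum step of 1 log2 unit left 254 calls in M19 and 249 in 129. Settings chosen after seeing the data left 13 calls without the probe sets high in 129 at E15.5 alone, 17 without the 4 tissue lists, 9 with a differing course and a highest mean other than 129 at E15.5, and 3 with M19 at E17.5 alone high. For named genes, 1608 values kept their side of the threshold, 56 lost it, 19 gained it and 0 reversed. The causes were not tested. Dim probe sets carry no detection call here, so signal over background limits their values in a way that was not measured.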

Other observations

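Cholesterol synthesis genes, which supply the substrate for androgen in Leydig cells, gave no calls. Of 19 measured genes, 16 had a positive interaction and 3 a negative one, against 9248 positive of all 18032 genes, with a median of 0.12, and 16 had their highest mean in M19 at E17.5, which held for 23.8% of all genes. No member was called in either late step or in the interaction, and Srebf2, a master regulator of the pathway, had the largest value, 0.33.

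Of 8 red blood cell genes, 4 fell in M19 (1.8% of all genes did) and 4 in 129 (1.25%), while Alas2, of haem synthesis, rose in M19, by 0.76. Of 10 peritubular and smooth muscle genes, 5 rose in M19 (1.45% of all genes did) and 4 in 129 (1.18%), and the others were not called. Neither list had a called interaction. Lhx1, a LIM homeobox gene of the organizer and the kidney, had a dimmer probe set at 6.26 and 6.33 in M19 at E15.5 and 7.61 and 8.19 in M19 at E17.5, against 4.6 and 4.88 in 129 at E15.5 and 5.02 and 4.56 in 129 at E17.5. Its interaction of 1.56 ± 0.47 was not called (limma adjusted p = 0.62), and this probe set was chosen after its values were seen.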
